A study of Saccharomyces cerevisiae with 10 samples.

Results

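STE12, TEC1, DIG1, DIG2 and PGU1 are 5 genes at the end of the filamentation MAP kinase cascade of budding yeast, Saccharomyces cerevisiae. They were taken by their systematic names (YHR084W, YBR083W, YPL049C, YDR480W and YJR153W), which make up 5 of the 6292 open reading frames in the table. RNA came from wild-type diploid cells that had grown in the yeast form in SHAD liquid, with plentiful glucose and ammonium, and were then moved to SLAD agar, which is low in ammonium, for growth in the filamentous form. Each of 10 two-colour arrays set filamentous-form RNA of 1 hour, from hour 1 to hour 10, beside yeast-form RNA. All samples thus share 1 diploid wild type, differ in medium and support together, and carry no mutation or added agent in the labels.

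Filamentous growth in diploid yeast is driven in part by a MAP kinase cascade that ends at the kinase Kss1. Kss1 acts on the transcription factor Ste12, which binds DNA on filamentation genes together with its partner Tec1, while the related proteins Dig1 and Dig2 bind Ste12 and hold it inactive until the kinase releases it. Ste12 without Tec1 serves the mating genes of haploid cells. Tec1 acts on its own gene too, and PGU1, which encodes a secreted pectinase, is a known target of the pair.

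Values are log2 ratios of filamentous over yeast form, with each array set to a median of 0. That direction is likely but not stated. It rests on the channel order of the labels and on the positive means of 3 genes of poor nitrogen supply, GAP1 (1.75 ± 0.33), MEP2 (1.15 ± 0.45) and DAL80 (3.03 ± 1.16; SD over hours, n = 10 each). DAL5, an allantoate permease gene that poor nitrogen supply also raises, went the other way, at -1.07 ± 0.50 (n = 10), so these genes do not settle the direction. If the ratio ran the other way, every sign and every higher or lower below would turn. No hour has a second array, so the scatter over hours is the only error, and the small number of arrays limits precision. Separate cultures for the hours are not mentioned in the labels, so p-values measure scatter that may be technical. Even hours and odd hours stood apart in part of the genes, without overlap in 8.62% of the 4956 genes with 10 values. The labels name no such batch, and each member is given for both kinds of hour. The medians of the deposited arrays lay between 0.12 and 0.39 and averaged 0.30, so any mean below lies about 0.30 higher on the deposited scale. In RNA of a whole population, a changed share of cells and a changed amount of RNA per cell cannot be told apart.

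STE12, the transcription factor that mating and filamentation share, was below the array median at every hour but hour 2. Over even hours its log2 ratios were 2.62 at hour 2, -0.16 at hour 4, -0.02 at hour 6, -0.25 at hour 8 and -0.05 at hour 10. Over odd hours they were -0.63 at hour 1, -0.75 at hour 3, -0.71 at hour 5, -0.76 at hour 7 and -0.42 at hour 9. Hour 2 alone was high, at 6.17-fold, and every even hour lay above every odd hour. At hour 2 STE12 stood at the 97.8th percentile of that array, with rank 132 of 6063 values, while its percentiles at the other hours ran from 19.5 at hour 7 to 49.3 at hour 6. The mean over hours was -0.11 ± 1.00 (SD, n = 10) and did not pass in limma (adjusted p = 0.79). Without hour 2 the mean was -0.42 ± 0.31 (n = 9, limma adjusted p = 0.027), and on the deposited scale with all hours it was 0.18 (limma adjusted p = 0.62). The sign of the mean therefore depends on centring.

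TEC1, the partner of Ste12 in filamentation, was above the median at 5 of 5 even hours and at 2 of 5 odd hours. Over even hours its log2 ratios were 3.43 at hour 2, 1.09 at hour 4, 1.52 at hour 6, 1.31 at hour 8 and 1.82 at hour 10. Over odd hours they were 0.59 at hour 1, -0.64 at hour 3, 0.63 at hour 5, -0.77 at hour 7 and -0.25 at hour 9. The even hours did not overlap the odd ones, and hour 2 was the highest, at 10.8-fold. Its rank there was 43 of 6063 values. Between percentiles 83.9 and 99.3 at even hours, TEC1 lay between percentiles 19.2 and 74.2 at odd hours. The mean over all hours, 0.87 ± 1.27, did not pass (limma adjusted p = 0.088), and it passed on the deposited scale, where it was 1.17 (limma adjusted p = 0.026). On the centred scale it also passed in the fit with an even or odd term (limma adjusted p = 0.0071) and with adjacent hours averaged (limma adjusted p = 0.040).

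DIG1, whose protein inhibits Ste12, had its highest ratio in the middle of the series. Over even hours it was at 0.54 at hour 2, 0.65 at hour 4, 3.41 at hour 6, 0.43 at hour 8 and 0.21 at hour 10. Over odd hours it was at 0.19 at hour 1, 0.76 at hour 3, 1.44 at hour 5 and -0.08 at hour 9, while hour 7 holds an exact 0, taken as missing. Hour 6 was far above the rest, at 10.6-fold and rank 53 of 5851 values, with hour 5 next. Even and odd hours overlapped. The mean was 0.84 ± 1.06 (SD, n = 9), and the fitted mean, which allows for the missing hour, was higher by 0.90 ± 0.27 (SE, limma adjusted p = 0.025). Without hour 6 the fitted mean was 0.55 (limma adjusted p = 0.018), and the call was lost without hour 5 (limma adjusted p = 0.058).

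DIG2, the paralog of DIG1, was below the median at hours 1 and 2 and above it at the 8 later hours. Over even hours it was at -0.34 at hour 2, 0.39 at hour 4, 0.28 at hour 6, 0.73 at hour 8 and 1.44 at hour 10. Over odd hours it was at -0.52 at hour 1, 0.23 at hour 3, 0.57 at hour 5, 0.24 at hour 7 and 0.71 at hour 9. The low and high ends thus lay at opposite ends of the series, among even and among odd hours alike, and the even and odd values overlapped. The mean was higher by 0.37 ± 0.56 (SD, n = 10; limma adjusted p = 0.024), and this call was lost when hour 8, 9 or 10 was left out (limma adjusted p = 0.068 without hour 8, 0.056 without hour 9 and 0.10 without hour 10). The fitted linear change was 0.16 ± 0.04 per hour (SE) and did not pass in limma (adjusted p = 0.27), as no gene of 5775 did.

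PGU1, the pectinase gene and target of the pair, kept the narrowest range of the 5 genes. Over even hours it was at 0.46 at hour 2, 0.36 at hour 4, 0.39 at hour 6, -0.19 at hour 8 and -0.07 at hour 10. Over odd hours it was at 1.15 at hour 1, -0.18 at hour 3, 0.24 at hour 5, 0.14 at hour 7 and -0.19 at hour 9. Hour 1, at 2.22-fold, stood apart, the next value being 0.46 at hour 2, and even and odd hours overlapped. The mean of 0.21 ± 0.42 (SD, n = 10) did not pass on the centred scale (limma adjusted p = 0.18). On the deposited scale all 10 values were above 0, and the mean of 0.51 passed (limma adjusted p = 0.0047).

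**Figure D1:**
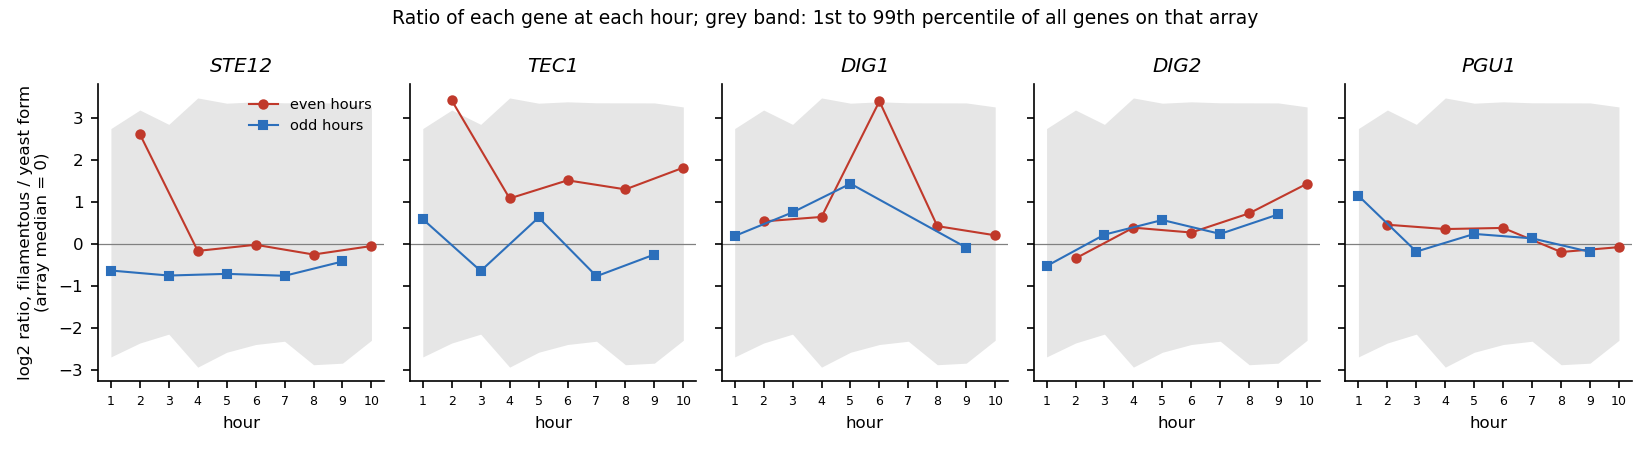
Log2 ratio of filamentous over yeast form (vertical axis, array median at 0) against hour for each of the 5 genes, with even hours as red circles and odd hours as blue squares. The grey band spans the 1st to the 99th percentile of all genes on each array; TEC1 at hour 2 and DIG1 at hour 6 lie just past it, STE12 is high at hour 2 only, and DIG1 has no value at hour 7.

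With the 5 genes side by side, 2 were higher over the hours as a whole, DIG1 and DIG2, and 0 were lower. With an even or odd term in the fit TEC1 was called as well, and with adjacent hours averaged TEC1 was called while DIG1 and DIG2 were not (limma adjusted p = 0.13 and 0.075). Of all 5775 genes tested, 22.6% were called higher and 22.4% lower, 45% in either direction, so a call is common in this table. The median of the 5 fitted means was 0.37, against 0.08 over all genes tested. For the linear change 0 of the 5 genes and 0% of all genes were called in limma, while 641 genes had an unadjusted p under 0.05. DIG2 was among these, as was PGU1, at -0.10 ± 0.04 per hour (SE). PGU1 was no longer among them without hour 1, where its change was -0.056 per hour, nor without hour 2, 4, 5, 7, 8, 9 or 10, where it lay between -0.11 and -0.092.

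The next comparison set even hours against odd hours, because part of the genes stand apart that way. This split was known from earlier results of these data and no label defines it. Its p-values thus describe these arrays and are not independent evidence. TEC1 averaged 1.83 ± 0.93 over even hours and -0.09 ± 0.67 over odd hours (SD, n = 5 each). In a limma fit with linear and quadratic terms in hour, TEC1 was higher at even hours by 2.04 ± 0.42 (SE, adjusted p = 0.027), where 6.35% of 5775 genes were called in either direction and 2.01% with even hours higher. The call was lost without hour 1, 2, 3, 6, 7, 8, 9 or 10 (limma adjusted p from 0.0503 to 0.0689) and kept without hour 4 (adjusted p = 0.034) or hour 5 (adjusted p = 0.022), with differences between 1.62 and 2.35 in these 10 fits. With 1 array fewer, the number of all genes called with even hours higher was 38 to 77 in place of 116. Each even hour was also set against the odd hour before it, and TEC1 was higher in 5 of 5 such pairs, by 0.89 to 2.83 and on average by 1.92 ± 0.31 (SE, limma adjusted p = 0.027, where 0.983% of 5491 genes were called with even hours higher and 2.77% lower).

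STE12 averaged 0.43 ± 1.23 over even hours and -0.65 ± 0.14 over odd hours. Its fitted difference of 1.21 ± 0.49 (SE) did not pass (limma adjusted p = 0.19), and it was 0.51 without hour 2 (limma adjusted p = 0.25). In the pairs with the odd hour before, STE12 was higher at the even hour in 5 of 5, by 3.26 at hour 2 and by 0.37 to 0.69 at the others, and the mean of 1.08 ± 0.45 did not pass (SE, limma adjusted p = 0.24). Without hour 2 the even mean of STE12 was -0.12, still above each of the odd values. STE12 and TEC1 were 2 of the 4 genes with 10 values that had every even hour above every odd hour, an ordering that 2.95% of 4956 genes with 10 values shared. The reverse ordering held in 5.67%, so that even and odd hours were apart in 8.62% of these genes. Over odd hours STE12 kept between -0.76 and -0.42, whereas TEC1 ranged from -0.77 to 0.63.

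The 3 other genes showed no such separation. DIG1 averaged 1.05 ± 1.33 over even hours (n = 5) and 0.58 ± 0.67 over odd hours (n = 4). DIG2 averaged 0.50 ± 0.65 over even hours and 0.25 ± 0.48 over odd hours, and PGU1 averaged 0.19 ± 0.30 over even hours and 0.23 ± 0.55 over odd hours (n = 5 each). Their fitted differences, even minus odd, were 0.38 ± 0.58, 0.10 ± 0.23 and 0.05 ± 0.24 (SE), with limma adjusted p of 0.77, 0.86 and 0.93. A p that misses the threshold does not show that even and odd hours were alike in these genes.

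**Figure D2:**
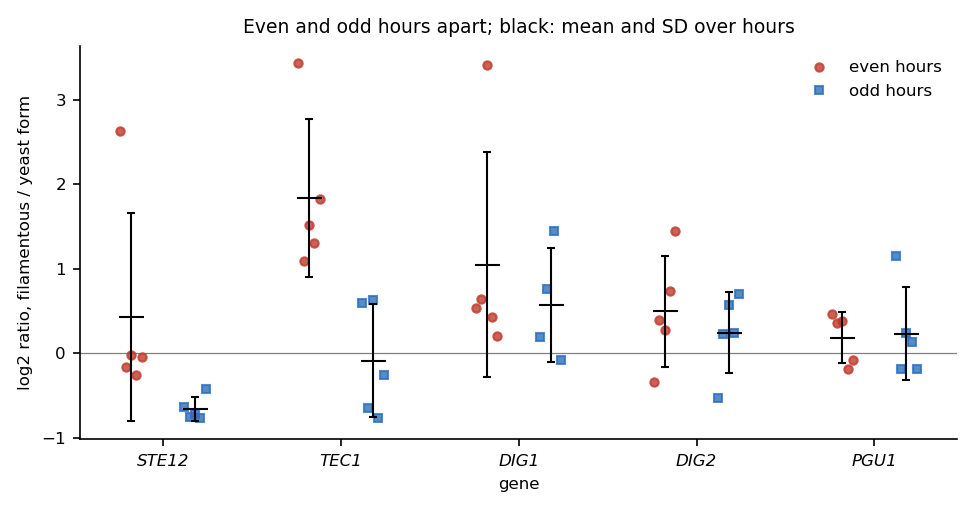
Log2 ratio of filamentous over yeast form (vertical axis) for each gene, with even hours as red circles on the left and odd hours as blue squares on the right; black marks are the mean and SD over the hours of each kind. For STE12 and TEC1 the lowest even value lies above the highest odd value (-0.25 against -0.42, and 1.09 against 0.63), while DIG1, DIG2 and PGU1 overlap.

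Differences between genes on the same array do not depend on how that array was centred, and show how the members moved relative to each other. TEC1 minus STE12 was 0.99 ± 0.68 on the log2 scale (SD, n = 10) and above 0 at 9 of 10 hours, with the lowest difference, -0.01, at hour 7. STE12 was below the array median at every hour but hour 2, so most genes stood above it at those hours. The even-hour differences of TEC1 minus STE12 lay between 0.80 and 1.87, and the odd-hour ones between -0.01 and 1.35. At hour 2, where STE12 and TEC1 had their highest ratios on the same array, the difference was 0.80. On that array DIG1 was at 0.54 and DIG2 at -0.34, so neither repressor was high with them.

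The ratios of the inhibitors stood above that of STE12 at every hour measured but hour 2. So did those of most genes, as STE12 lay at percentiles 19.5 to 49.3 of its array at those hours. Ratios do not compare the RNA levels of different genes. DIG1 minus STE12 was 0.88 ± 1.50 (n = 9), from -2.08 at hour 2 to 3.42 at hour 6, and above 0 at 8 of 9 hours. DIG2 minus STE12 was 0.48 ± 1.29 (n = 10), from -2.97 at hour 2 to 1.49 at hour 10, and above 0 at 9 of 10 hours. Without hour 2 these differences were 1.25 ± 1.08 for DIG1 (n = 8) and 0.87 ± 0.46 for DIG2 (n = 9). Against TEC1 the inhibitors had no constant order, with DIG1 higher at 4 of 9 hours and DIG2 at 3 of 10. DIG2 was below TEC1 at 5 of 5 even hours, with differences from -3.77 to -0.38. Most genes were below TEC1 on those arrays too, where TEC1 lay between percentiles 83.9 and 99.3.

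PGU1, the target, was below TEC1 at every even hour, as were most genes, with TEC1 between percentiles 83.9 and 99.3 there. PGU1 minus TEC1 was -1.65 on average over even hours, from -2.97 at hour 2 to -0.73, and 0.32 over odd hours, from -0.39 to 0.90. At hour 2, with STE12 at 2.62 and TEC1 at 3.43, PGU1 was at 0.46 and at percentile 67.2 of its array. No test was run on these differences between genes, which are descriptions of the 10 arrays.

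**Figure D3:**
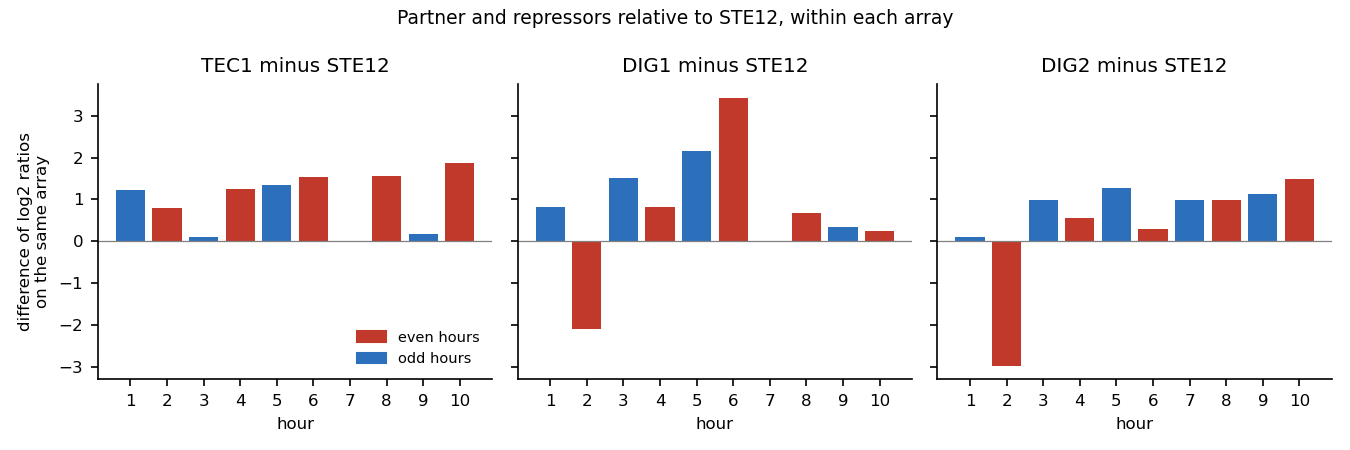
Difference of log2 ratios on the same array (vertical axis) against hour for TEC1, DIG1 and DIG2, each minus STE12, with even hours in red and odd hours in blue. Bars above 0 mean a higher ratio than STE12; the 2 repressors drop below STE12 only at hour 2, TEC1 is at -0.01 at hour 7, and DIG1 has no value there.

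For each member the 3 genes with a standard symbol and 10 values whose ratios differed least from it over the hours were listed, by root-mean-square difference. Such a choice picks genes that share the member's high and low hours, so that sharing is no separate result about these genes. Those of STE12 were COS8, of a subtelomeric family with near-identical copies, at 0.30, OSH7, an oxysterol-binding protein, at 0.44, and SDH7, an assembly factor of succinate dehydrogenase, at 0.44, where the median over 4266 genes was 1.31. Each of these 3 genes had its highest ratio at hour 2, with 2.30 for COS8, 2.95 for OSH7 and 2.46 for SDH7. Those of TEC1 were TLG1, a SNARE of the endosome, at 0.66, SLY1, a regulator of vesicle fusion, at 0.68, and FPR4, a prolyl isomerase of the nucleus, at 0.68 (median 1.66). They averaged 1.31, 1.51 and 1.55 over even hours and 0.17, 0.03 and 0.29 over odd hours.

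Nearest to DIG1 over its 9 hours were APC1, a subunit of the anaphase-promoting complex, at 0.49, MTG1, a mitochondrial GTPase, at 0.59, and NAF1, an assembly factor of small nucleolar RNA particles, at 0.61 (median 1.50 over 4267 genes). At hour 6 these genes were at 2.35, 3.69 and 2.48, each at its own highest, which again follows from the choice by closeness. UTP15, a factor of ribosome assembly, at 0.24, RPL6B, a ribosomal protein with a close paralog, at 0.33, and GET1, a receptor for tail-anchored proteins, at 0.34 were nearest to DIG2 (median 1.04). PGU1 was nearest to ESF1, a ribosome assembly factor, at 0.25, COX23, a mitochondrial protein, at 0.29, and QRI5 at 0.29 (median 0.95). None of these 15 genes belongs to the pathway lists given below, which hold few of the genes compared, so this absence says little.

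Chromosomal neighbours, read from the RefSeq table of assembly R64, did not share the high hours of STE12, TEC1 or DIG1 at the same size. At hour 2 the neighbours of STE12 were at 1.01 (SAM35) and -0.95 (IPI1), with STE12 at 2.62, and UBC4 beside TEC1 was at 1.30, with MIS1 missing. At hour 6 the neighbours of DIG1 were at 0.28 (MNN9) and -0.27 (CAM1). PGU1 lies beside DAL5, at a mean of -1.07 ± 0.50, and YJR154W, at -1.28 ± 0.42. No gene of that table overlaps any of the 5 members.

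In the kinase cascade above Ste12 the calls went in both directions, each near its share over all genes. The list held 16 genes for its sensors, GTPases and kinases and for other proteins that act with them, and 15 were tested. Of these 4 were higher and 4 lower in limma, where 22.6% of all genes were higher and 22.4% lower. The list median was -0.08 (on the deposited scale 6 and 2, median 0.22). With even hours alone 4 were higher and 3 lower, and with odd hours alone 1 and 3. Over all genes tested the shares higher and lower were 38.8% and 15.3% on the deposited scale, 20.7% and 23.5% with even hours alone, and 15.4% and 17.1% with odd hours alone, and the list counts below are read against these. KSS1, the kinase that acts on Ste12, had the highest mean of the list, at 2.50 ± 0.42 (adjusted p = 1.5e-07; the lowest, at -2.50, if the ratio ran the other way), with 2.66 over even and 2.35 over odd hours. CDC42, the GTPase at the head of the cascade, was at 0.94 ± 0.51 (adjusted p = 0.0014), and OPY2, a membrane anchor of the cascade, at 0.69 ± 0.63 (adjusted p = 0.0057). STE20, the kinase that Cdc42 activates, was lower, at -1.03 ± 0.33 (adjusted p = 1.7e-05), as was YPS1, a protease that cleaves the sensor Msb2, at -1.37 ± 0.82 (adjusted p = 0.0018). The other calls were the 14-3-3 genes BMH2, at 0.68, and BMH1, at -0.45, which are close paralogs, and RAS2, at -0.75. BMH2 was higher at even than at odd hours by 1.02 (limma adjusted p = 0.041), with means of 1.16 and 0.21, as 1 of the 15 genes against 2.01% of all genes. With odd hours alone the calls of CDC42, OPY2, BMH2, BMH1 and RAS2 were lost (limma adjusted p = 0.062, 0.25, 0.41, 0.083 and 0.44), and that of BMH1 also with even hours alone (limma adjusted p = 0.061). The calls of BMH1 and RAS2 were lost on the deposited scale (adjusted p = 0.22 and 0.17), and that of RAS2 also without hour 2, 4, 5, 6, 7 or 8 (limma adjusted p from 0.0501 to 0.112). STE11 and STE7, the kinases between STE20 and KSS1, did not pass, at -0.08 ± 0.41 and 0.88 ± 1.20 (n = 9 for STE7), and MSB2, with 6 values at -1.06 ± 0.51, was not tested.

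Among filamentation genes that Ste12 and Tec1 are known to bind, 3 of 5 tested were higher and 0 lower, against 22.6% and 22.4% of all genes, and the list median was 0.66 (on the deposited scale 4 and 0, median 0.96). PGU1 and TEC1, known targets too, are members and are not on this list, and neither mean passed (limma adjusted p = 0.18 and 0.088). The sixth gene of the list, MSB2, is also in the cascade and was not tested, and its 6 values were all below 0. With even hours alone 2 were higher and 1 lower, and with odd hours alone 2 and 0. Beside KSS1, which is on this list too, they were CLN1, a G1 cyclin, at 0.87 ± 1.09 (limma adjusted p = 0.020, and 0.052 without hour 5 or without hour 6), and SVS1, a cell wall protein, at 0.66 ± 0.68 (limma adjusted p = 0.0099). FLO11, the adhesin of filaments, was at 0.63 ± 0.88 and YLR042C at -0.25 ± 0.53, with limma adjusted p of 0.080 and 0.27. The CLN1 call was also lost with adjacent hours averaged (limma adjusted p = 0.079) and with odd hours alone (limma adjusted p = 0.23), and the SVS1 call with even or with odd hours alone (limma adjusted p = 0.11 and 0.064). The fitted even-minus-odd difference passed in limma for 0 of these 5 genes, where 6.35% of all genes passed. FLO11 averaged 0.20 over even and 1.06 over odd hours, and YLR042C -0.60 over even and 0.10 over odd hours.

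Mating genes that Ste12 serves in haploid cells, many of which diploids keep low, were also followed. Of 19 such genes 17 were tested, where 22.6% of all genes were higher and 22.4% lower, with 1 higher, FUS2, a cell fusion gene, at 0.66 ± 0.51 (adjusted p = 0.0094), and 1 lower, FAR1, an inhibitor of G1 cyclins, at -0.48 ± 0.40 (adjusted p = 0.0050), both in limma. FAR1 did not pass on the deposited scale (limma adjusted p = 0.21), where 2 were higher and 0 lower, with a list median of 0.24 in place of -0.06. With even hours alone 2 of 16 tested were higher, FUS2 among them, and 3 lower, and with odd hours alone 2 of 15 were higher and 1 lower. FAR1 passed with neither (limma adjusted p = 0.096 and 0.12), nor with adjacent hours averaged (limma adjusted p = 0.077), and FUS2 did not with odd hours alone (limma adjusted p = 0.087). In limma, 2 of the 17 genes were lower at even than at odd hours, FUS1, a cell fusion gene, by -1.56 (adjusted p = 0.046), and PRM6, by -2.01 (adjusted p = 0.0055), against 4.35% of all genes in that direction. The means over all hours of FUS1, at 0.53, and PRM6, at 0.36, did not pass, and both passed as higher in the fit with an even or odd term (limma adjusted p = 0.042 and 0.047). Both were higher with odd hours alone (limma adjusted p = 0.049 and 0.0093), and PRM6 was lower with even hours alone (limma adjusted p = 0.027), while FUS1 also passed on the deposited scale (limma adjusted p = 0.036). TEC1 differed the other way, with even hours higher.

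Other transcription factors that govern filaments numbered 13, of which 3 were higher and 2 lower, near or under the 22.6% and 22.4% of all genes, and the list median was 0.21 (on the deposited scale 4 and 2, median 0.51). PHD1, an activator, was at 1.26 ± 0.59 (limma adjusted p = 0.00014), SOK2, a regulator of the same family, at 0.80 ± 0.75 (adjusted p = 0.020) and MSN1, an activator of FLO11, at 0.31 ± 0.34 (adjusted p = 0.029, and between 0.054 and 0.12 without hour 6, 7, 8 or 10). SFL1, a repressor of FLO11, was at -1.15 ± 0.31 (limma adjusted p = 2.9e-05) and TUP1, a general corepressor, at -0.82 ± 0.21 (limma adjusted p = 5.0e-05). The list was not sorted into activators and repressors, and a pattern by role was not tested. With even hours alone 3 were higher and 2 lower, and with odd hours alone 1 and 2. Of the 3 higher genes PHD1 alone was called in both, SOK2 and MSN1 in neither (limma adjusted p = 0.052 and 0.084 at even hours, 0.058 and 0.43 at odd hours), and MSN1 was also lost with adjacent hours averaged (limma adjusted p = 0.11). FLO8, a further activator of FLO11, was at -0.01 ± 0.41 and did not pass (limma adjusted p = 0.94).

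A last list held factors that act on the Ste12 and Tec1 proteins, such as the ubiquitin ligase SCF, which marks Tec1 for destruction, and the Mediator kinase module, which acts on Ste12. Of these 9 genes 0 were higher and 2 lower, against 22.6% and 22.4% of all genes, and the list median was -0.31 (on the deposited scale 1 and 2, median -0.01). With even hours alone 0 of 7 tested were higher and 3 lower, and with odd hours alone 0 and 3 of 8. The lower genes were CDC53, the cullin of SCF, at -1.75 ± 0.51 (limma adjusted p = 1.3e-06), and SSN2, a subunit of the Mediator module, at -1.22 ± 0.58 (below 0 at 10 of 10 hours for each). CDC4, the SCF subunit that binds Tec1, was at -0.31 ± 0.46 and SSN3, the kinase of the Mediator module, at -0.17 ± 0.49, and neither passed (limma adjusted p = 0.13 and 0.45).

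Markers of other cell types were followed as well. Of 18 haploid genes 15 were tested, with 4 higher and 4 lower, near the 22.6% and 22.4% of all genes (5 and 1 on the deposited scale, 3 and 2 of 14 with even hours alone, and 2 and 3 of 14 with odd hours alone). Beside FUS2, the higher ones were STE5, the scaffold of the mating cascade, at 0.87 ± 0.87, MFA2, a gene for a-factor, at 0.79 ± 0.75, and STE4, a G protein subunit, at 0.58 ± 0.55 (n = 9). Beside FAR1, the lower ones were AGA2, an agglutinin subunit, at -1.32 ± 0.41, HO, the mating-type endonuclease, at -1.17 ± 1.14 (n = 8), and STE3, the a-factor receptor, at -0.55 ± 0.64. FAR1, HO and STE3 did not pass on the deposited scale. The number lower was 3 without hour 1, 2, 3, 4, 5, 6 or 7 and 2 without hour 8 or 9. Without hour 10 it was 4, with STE3 not among them. The call of HO (limma adjusted p = 0.043) was lost without hour 1, 3, 5, 7, 8 or 9. That of STE3 (limma adjusted p = 0.047) was lost without hour 2, 4, 6, 8, 9 or 10. The number higher was 3 without hour 1, where STE4 was lost, and without hour 8, where STE5 was lost. Of the 8 calls 4 were made again with even hours alone (FUS2, STE5, AGA2 and STE3) and 3 with odd hours alone (MFA2, AGA2 and HO). HO had too few values at even hours to be tested there. Of 5 meiosis genes 0 were higher and 1 lower, against 22.6% and 22.4% of all genes. The lower one was SPO11, which makes the breaks of recombination, at -0.91 ± 0.67 (limma adjusted p = 0.00098). With odd hours alone 0 were higher and 4 lower of 4 tested, against 15.4% and 17.1% of all genes. With even hours alone 1 was higher and 1 lower of 5, against 20.7% and 23.5%. Without hour 2, 4, 6 or 10 the number lower was 2. SPO13, a regulator of meiotic division, was higher at even than at odd hours by 1.30 (limma adjusted p = 0.030), as TEC1 was, with means of 0.72 and -0.64. That was 1 of the 5 genes, against 2.01% of all genes. The part of these genes in the members' values was not tested. Ratios hold no level, so the diploid label was not checked against the level of any marker.

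**Figure D4:**
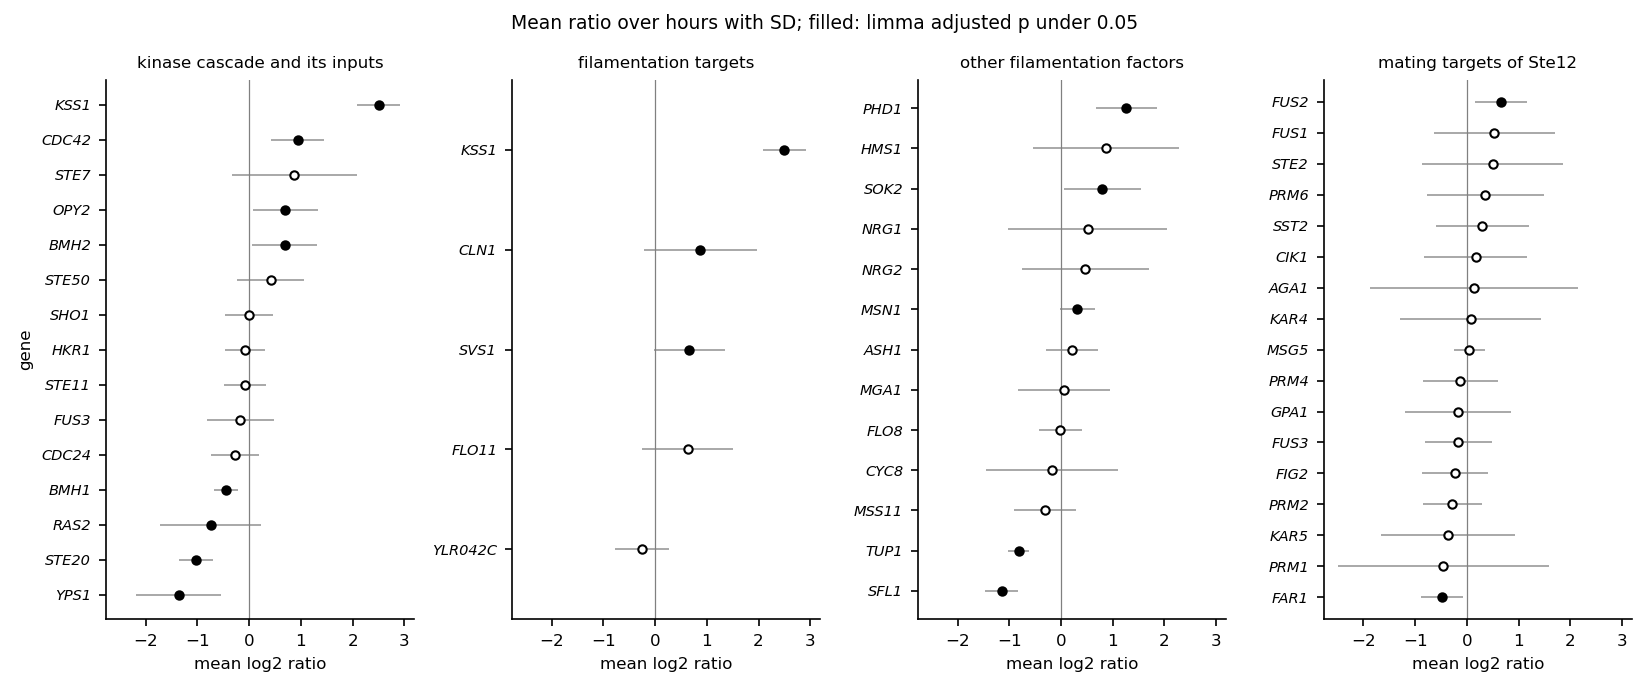
Mean log2 ratio over hours (horizontal axis) with its SD over hours for the tested genes of 4 lists, ordered by mean within each; filled points have a limma adjusted p under 0.05 and open points do not. KSS1 has the highest mean, at 2.50 (the lowest, at -2.50, if the ratio ran the other way), and the mating genes of Ste12 lie around 0 with FUS2 and FAR1 as the filled points.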

How the data were processed

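The deposited table gives, for each array, a log2 ratio of its channels at every open reading frame. How the authors scanned, dyed, background-corrected and normalized the arrays is not stated in the labels. Base 2 was settled from the deposited log2 values: with it 98.4% of ratios were whole ten-thousandths within 0.02, against 4.60% with base e and 4.18% with base 10. Every deposited value ends in a constant 3 in the 7th decimal, and 3324 of 62920 values (5.28%) hold that digit only. These were read as exact zeros and taken as missing. Usable values per array ran from 5802 to 6063. No measure of signal above background was used.

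The median of each array was subtracted from its values. The 5775 genes with at least 8 of 10 values were fitted with limma 3.58.1 in R 4.3.3 (lmFit, eBayes) on an intercept with linear and orthogonal quadratic terms in hour, and again with an even or odd term. P-values are two-sided and Benjamini-Hochberg adjusted over all genes tested, with a threshold of 0.05. The code was tested on simulated arrays. The members, the lists and the split into even and odd hours were chosen with earlier results of these data known, so none of them is independent evidence. Named genes were the members, their 3 nearest genes, their neighbours, the genes of the direction check and list members that passed, with the extremes of each list where wanted. STE7, STE11, FLO8, FLO11, YLR042C, CDC4 and SSN3, which did not pass, MSB2, which was not tested, and FUS1, PRM6 and SPO13, which passed for even against odd hours and not for the mean over all hours, were named after their values were seen. Names of 5792 open reading frames matched the R64 table and 500 did not. No sequences were used here. Alternatives covered centring, zeros, filter, variance model, array weights, spread, even and odd hours, adjacent hours, averaged or as pairs, and each hour left out. The pairs were chosen after seeing the data. Figures were drawn with matplotlib 3.10.9.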

Additional observations from a re-analysis of the deposited data

Results flagged for a closer look

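In 3 of the 5 genes the highest hour stood apart from the rest by Dixon's 95% criterion, applied over the hours although hours are not replicates. STE12 was at 2.62 at hour 2, with a gap to the next value of 78.1% of its range. DIG1 was at 3.41 at hour 6, with a gap of 56.3%, and PGU1 at 1.15 at hour 1, with a gap of 51.5%. Chance flags about 1 in 20 groups. By the same criterion an hour stood apart at either end in 9.95% of genes with 10 values and in 12.3% of those with 9 values, and at the top in 6.88% and 9.04%. A gap share as large as that of STE12 at the top was found in 3 of 4956 genes, STE12 included. TEC1 is listed for a difference between even and odd hours, higher at even hours by 2.04 (limma adjusted p = 0.027). The causes were not tested.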

How the results depend on the processing

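With 1 array per hour and no spot intensities, neither the precision of a single hour nor signal over background is known. On the deposited scale the means were 0.18 for STE12 (sign turned), 1.17 for TEC1 and 0.51 for PGU1 (now called), and 2243 genes were higher in place of 1307 and 885 lower in place of 1293, so that 71.7% of calls were higher in place of 50.3% (28.3% in place of 49.7% if the ratio ran the other way). With even hours alone the means were 0.43 for STE12 (sign turned), 1.83 for TEC1 (called) and 1.05 for DIG1 (no longer called), and with odd hours alone they were -0.65 for STE12 (called), -0.086 for TEC1 (sign turned), 0.56 for DIG1 and 0.25 for DIG2 (no longer called). With adjacent hours averaged TEC1, at 0.87, was called, and DIG1, at 0.80, and DIG2, at 0.37, were not. TEC1, at 0.87, was called in the fit with an even or odd term. The causes were not tested. With each even hour against the odd hour before it, an alternative chosen after seeing the data, 54 genes were higher and 152 lower in place of 116 and 251, and PGU1 was at -0.045 (sign turned). Of 117 values of the members under settings other than leaving out an hour, 102 kept direction and call, and of 150 without 1 hour 127 did. Of the counts over all genes 45 of 48 and 45 of 60 stayed within 1.5 times. Among the 48 and among the 60 the counts for linear change were 0 in every fit and so were counted as staying. Without 1 hour the even-minus-odd counts stayed in 0 of 10 fits for higher and in 5 of 10 for lower.

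Without 1 hour in turn, means ran from -0.42 to -0.040 for STE12, 0.59 to 1.06 for TEC1, 0.55 to 1.02 for DIG1, 0.25 to 0.47 for DIG2 and 0.11 to 0.26 for PGU1. Linear changes per hour ran from -0.16 to 0.049 for STE12, -0.16 to 0.074 for TEC1, -0.070 to 0.047 for DIG1, 0.13 to 0.18 for DIG2 and -0.12 to -0.056 for PGU1. Even-minus-odd differences ran from 1.62 to 2.35 for TEC1, 0.51 to 1.49 for STE12, -0.047 to 0.69 for DIG1, -0.044 to 0.19 for DIG2 and -0.083 to 0.22 for PGU1, with 38 to 77 genes higher and 116 to 205 lower in place of 116 and 251, where fewer arrays leave fewer degrees of freedom. The nearest genes are the same on the deposited scale by construction. DIG1 has 9 values and gave none with all 10 values required. The labels give no replicate numbers that pair arrays.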
